A study of Mus musculus with 9 samples.

Results

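The MEF2 transcription factors of muscle, the class IIa histone deacetylases that hold them in check, the muscle methyltransferase gene Smyd1 and the chromatin remodelling gene Smarcd3 were followed in beating cells grown from adipose tissue. The set was a list of 10 gene symbols, and its members were the rows of the array table that the annotation gives to 1 of these symbols alone. Of the 10 genes, 9 had such a row (Mef2a, Mef2c, Mef2d, Hdac4, Hdac5, Hdac7, Hdac9, Smyd1 and Smarcd3), among 19938 genes of 1 symbol and 33323 transcript clusters, as the probe groups that stand for a gene or a piece of it are called. The only cluster of Mef2b also carries the symbols of other genes, so Mef2b was not analysed here. Hdac4 and Mef2d had more than 1 cluster, and of these the brightest, by its mean over the 8 beating and non-beating arrays, stood for the gene.

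All cells came from the stromal vascular fraction (SVF) of subcutaneous adipose tissue of C57BL6/J mice aged 10 weeks, kept in a minimal growth medium with no inducing treatment. The 4 beating samples were colonies picked by hand on day 28, each pooled from 2 or 3 dishes of 1 lot of SVF. The round sample was 1 pool of 6 round cells picked on day 14. The 4 non-beating samples held the other cells of the dish on day 28, so they are mixed cultures rather than 1 cell type. The paper proposes that the picked colonies also held round cells and nearby muscle cells that did not beat. The beating samples are thus not taken as pure.

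MEF2 proteins bind an A/T-rich DNA element in the control regions of many muscle genes and act together with the myogenic factors of skeletal muscle and with heart factors. Class IIa deacetylases bind MEF2 in the nucleus and repress its targets. When calcium-dependent and other kinases phosphorylate them, 14-3-3 proteins carry them to the cytoplasm and MEF2 is released. Smyd1 is a muscle-restricted methyltransferase gene that MEF2C activates in the mouse heart, and Smarcd3 encodes BAF60C, a subunit that brings the BAF remodelling complex to heart and muscle genes.

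Values are log2 signals of Affymetrix Mouse Gene 1.0 ST arrays, used as deposited. A fold is 2 to the power of the difference in log2 signal and includes background, which keeps it from measuring a ratio of transcripts where 1 group is dim. The medians of the 8 beating and non-beating arrays lay between 3.08 and 3.17, and that of the round pool was 3.54. The beating group was set against the non-beating group with limma (a two-sided test with Benjamini-Hochberg adjustment over all 33323 clusters), and a gene is said to be higher or lower where the adjusted p was under 0.05. In all, 940 clusters were higher and 1114 lower, 6.16% of all clusters in either direction. Whether replicates came from separate lots of SVF is not given in the sources used here, so p reflects only how far these samples spread, and precision is limited by there being 4 arrays a group. The beating samples carried striated muscle markers: 9 of 10 genes common to both kinds of striated muscle and 11 of 13 genes of skeletal muscle were higher. Of 14 heart genes, Myh6 and Myl4 were higher, Tbx5 was lower and the other 11 passed in neither direction. Nppa was at 2.84 ± 0.065 and 2.73 ± 0.065 in the beating and the non-beating group (log2 signal, SD, n = 4 a group). In the same order, Myh6 was at 2.77 ± 0.094 and 2.36 ± 0.074, below the array medians in both groups, and Myl4 at 11.10 ± 0.32 and 6.10 ± 0.48. In bulk samples, fewer cells of a type and less RNA per cell cannot be told apart.

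Beating samples had more signal of Mef2c (by 4.01 on the log2 scale), Smyd1 (2.50), Mef2a (0.85) and Smarcd3 (0.79), and the other 5 members did not pass the test. Thus 4 of 9 members were higher and none was lower by limma, whereas 2.82% of all clusters were higher and 3.34% lower. At an unadjusted p under 0.05 there were also 4 of the 9 members, against 20.9% of all clusters. The same 4 genes were the members whose groups did not overlap with beating higher, against 5.98% of all clusters, and none of the 9 lay apart with beating lower, against 8.24%. The plot of the members on each array shows that the 4 rises differ much in size, and the median difference of the 9 members was 0.35, beside 0.0073 over all clusters. When the methods' two-sample test was run and adjusted over all clusters, Mef2c and Smyd1 passed, 2 of the 4.

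**Figure D1:**
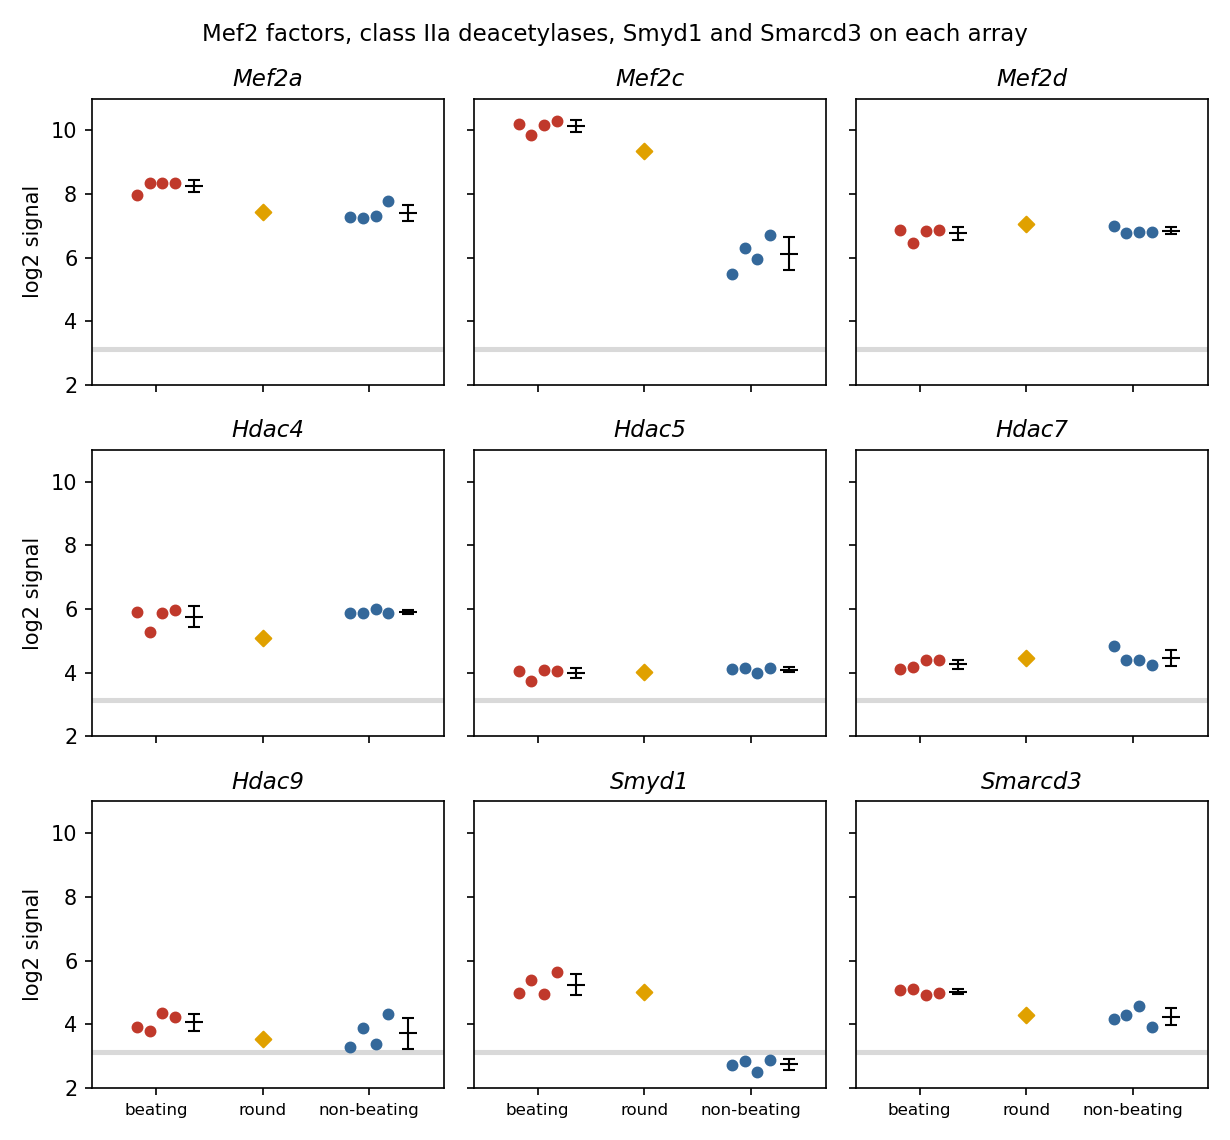
Log2 signal (y axis) of each gene on each array in beating samples (red, n = 4), the round pool (yellow diamond, 1 pool) and non-beating samples (blue, n = 4). Black marks show each group's mean with its SD, and the grey band is the range of the array medians of the 8 beating and non-beating arrays, 3.08 to 3.17. Mef2c and Smyd1 have a wide gap between beating and non-beating arrays, and Smyd1 lies below the grey band in all 4 non-beating samples.

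Mef2c, the MEF2 factor needed for early heart development in the mouse and active in skeletal muscle, had the largest rise among the 9 members. Its log2 signal was 10.21, 9.85, 10.17 and 10.29 in beating replicates 1 to 4, against 5.49, 6.31, 5.97 and 6.72 in non-beating replicates 1 to 4. The lowest beating array lay 3.13 above the highest non-beating array, and the 4 beating samples lay within 0.44 of each other, whereas the non-beating samples spread over 1.22. The mean was 10.13 ± 0.20 in the beating group and 6.12 ± 0.52 in the non-beating group (SD, n = 4 a group), a log2 fold change of 4.01 (standard error 0.24, 95% interval 3.45 to 4.57, adjusted p = 5.99e-05 by limma). Non-beating signals of Mef2c stood well above the array medians, so the gene was not dim in these mixed samples. Which of their cells gave the signal was not tested.

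Mef2a, a widely expressed MEF2 gene prominent in adult heart, had a smaller rise. Its log2 signal was 7.97, 8.35, 8.34 and 8.36 in beating replicates 1 to 4, against 7.29, 7.25, 7.30 and 7.77 in non-beating replicates 1 to 4. The groups came within 0.20 of each other, through beating replicate 1, the lowest of its group, and non-beating replicate 4, the highest of its group. The log2 fold change was 0.85 (standard error 0.14, 95% interval 0.53 to 1.18, adjusted p = 0.0129 by limma), which is 1.81-fold. Under the methods' two-sample test, adjusted, Mef2a no longer passed (adjusted p = 0.0533).

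Mef2d, the third MEF2 gene measured and also widely expressed, did not pass the test. Its log2 signal was 6.86, 6.46, 6.85 and 6.88 in beating replicates 1 to 4, against 7.0, 6.77, 6.81 and 6.79 in non-beating replicates 1 to 4, and the groups overlapped. The difference was -0.079 with a 95% interval from -0.33 to 0.17 (adjusted p = 0.748 by limma). A second, dimmer cluster of Mef2d had a difference of 0.22 (95% interval -0.042 to 0.49, adjusted p = 0.323), so the 2 clusters of this gene differ in sign and neither passed the test.

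Whether the MEF2 genes changed unequally was tested on the differences between their log2 signals within each array. The change of Mef2c exceeded that of Mef2a by 3.15 and that of Mef2d by 4.09, and the change of Mef2a exceeded that of Mef2d by 0.93. In each of these 3 pairs all 4 beating arrays lay on 1 side of all 4 non-beating arrays (exact two-sided permutation test over 70 assignments, p = 0.0286, the smallest the design allows). Adjusted over the 12 pairs tested in the Mef2, class IIa and Smarcd families, p was 0.0857, so none passed the threshold. Since p could not go below 0.0286, even complete separation could not pass among these 12 pairs, whatever its size. The adjusted p therefore says nothing for equal change.

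**Figure D2:**
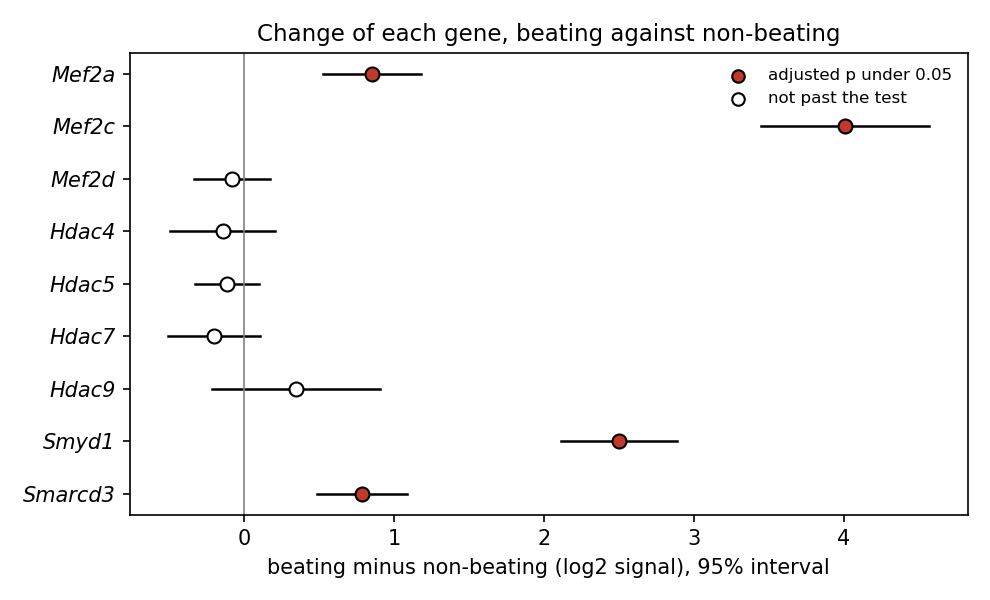
Beating minus non-beating difference in log2 signal (x axis) of each of the 9 genes, with its 95% interval from limma (n = 4 samples a group). Filled points have an adjusted p under 0.05 over all clusters, and open points do not. The intervals of Mef2c (3.45 to 4.57) and Smyd1 (2.11 to 2.88) lie apart from those of the other 7 genes, and the 4 deacetylase intervals include 0.

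Smyd1, whose product is a methyltransferase of striated muscle needed for sarcomere assembly in zebrafish and for heart development in the mouse, had the next largest rise of the set. Its log2 signal was 4.97, 5.39, 4.95 and 5.63 in beating replicates 1 to 4, against 2.74, 2.86, 2.49 and 2.87 in non-beating replicates 1 to 4. All 4 non-beating values lay below the array medians, and the groups were 2.08 apart at their nearest. The log2 fold change was 2.50 (standard error 0.17, 95% interval 2.11 to 2.88, adjusted p = 0.000115 by limma), and since the gene was dim in non-beating cells this size is one of signals that include background.

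Other SMYD genes and known partners of the Smyd1 protein were also read, 10 of them measured (Smyd2, Smyd3, Smyd4, Smyd5, Naca, Unc45b, Hsp90aa1, Ppargc1a, Isl1 and Hand2). None passed the test of limma in either direction, beside 6.16% of all clusters, and their median difference was 0.040. Unc45b, a chaperone of muscle myosin that was singled out after its values were seen, was at 3.58 ± 0.28 in the beating group and 3.02 ± 0.17 in the non-beating group (SD, n = 4 a group, adjusted p = 0.0671).

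Smarcd3 was higher in the beating samples by 0.79 on the log2 scale. Its log2 signal was 5.06, 5.10, 4.93 and 5.00 in beating replicates 1 to 4, against 4.15, 4.28, 4.58 and 3.93 in non-beating replicates 1 to 4. The beating samples lay within 0.17 of each other and the non-beating samples within 0.65, and the groups did not overlap (standard error 0.13, 95% interval 0.49 to 1.09, adjusted p = 0.0126 by limma). Under the methods' two-sample test, adjusted, Smarcd3 no longer passed (adjusted p = 0.0511).

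Its paralogs Smarcd1 and Smarcd2, which take the same place in BAF complexes of other cells, did not pass the test. Smarcd1 was at 3.91 ± 0.47 in the beating group and 3.85 ± 0.11 in the non-beating group (SD, n = 4 a group), with a 95% interval of the difference from -0.44 to 0.55. Smarcd2 was at 3.53 ± 0.14 in the beating group and 3.71 ± 0.071 in the non-beating group, with an interval from -0.37 to 0.016. The change of Smarcd3 exceeded that of Smarcd2 by 0.96 (exact permutation p = 0.0286, adjusted p = 0.0857 over the 12 pairs) and that of Smarcd1 by 0.73 (exact permutation p = 0.0571, adjusted p = 0.137). Of 24 BAF and PBAF subunits other than Smarcd3, only Brd7, a bromodomain subunit of PBAF, was higher, and none was lower. That is 4.17% of the list higher, beside 2.82% of all clusters. Brd7 was at 7.26 ± 0.13 in the beating group and 6.89 ± 0.090 in the non-beating group (adjusted p = 0.04 by limma). The call of Brd7 was lost without 6 of the 8 arrays in turn, the exceptions being beating replicate 3 and non-beating replicate 4 (adjusted p up to 0.113 over all alternatives), and with median centring, when none of the 24 was higher and 1 was lower.

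None of the 4 class IIa deacetylases passed the test of limma, beside 6.16% of all clusters called in either direction. None had an unadjusted p under 0.05 by limma, beside 20.9% of all clusters. Hdac4, a repressor of MEF2 in muscle and cartilage, had log2 signals of 5.92, 5.27, 5.87 and 5.98 in beating replicates 1 to 4, against 5.87, 5.87, 6.0 and 5.87 in non-beating replicates 1 to 4. The difference was -0.14, with a 95% interval from -0.49 to 0.21, and the gene's second cluster differed by -0.050 (interval -0.33 to 0.23). Beating replicate 2 was the lowest of the 4 beating arrays for Hdac4 in both clusters.

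Hdac5, whose protein restrains growth of the heart in the mouse, had log2 signals of 4.07, 3.74, 4.09 and 4.07 in beating replicates 1 to 4, against 4.11, 4.16, 3.98 and 4.15 in non-beating replicates 1 to 4. The difference was -0.11, with a 95% interval from -0.33 to 0.10. Hdac7, known from endothelial cells and developing T cells, had 4.12, 4.17, 4.39 and 4.39 in beating samples, against 4.83, 4.39, 4.39 and 4.25 in non-beating samples. Its difference was -0.20 (interval -0.51 to 0.11), and non-beating replicate 1 was the highest of the 8 arrays.

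Hdac9, itself a target of MEF2 in muscle and also a restraint on heart growth in the mouse, had the widest spread of the 4 in the non-beating group. Its log2 signal was 3.90, 3.78, 4.35 and 4.22 in beating replicates 1 to 4, against 3.29, 3.87, 3.37 and 4.32 in non-beating replicates 1 to 4. The groups overlapped, because non-beating replicates 2 and 4 lay among the beating samples. The difference was 0.35 with a 95% interval from -0.21 to 0.91 (adjusted p = 0.48 by limma), so a rise of the size of that of Mef2a lies within the interval. None of the 6 pairs within this family passed the test of unequal change (exact permutation p between 0.143 and 0.8 before adjustment).

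The table holds many exact ties. In 16617 of the 33323 clusters at least 2 of the 9 arrays carried exactly the same value, and in 15772 of these the shared value was the median of the 9 arrays. The brightest clusters of Hdac4 and Hdac7 each had 1 value on 4 arrays, and the second cluster of Hdac4 had 5.11 on all 4 non-beating arrays, an SD of 0. The part of such ties in the SDs was not tested. The brightest clusters of Mef2a, Mef2c, Mef2d, Smyd1, Smarcd3 and Hdac9 had 9 different values.

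The promoter windows of the 4 genes that rose, and of Hdac5 for comparison, were read for DNA elements of muscle factors. They are RefSeq windows on GRCm38.p6, of 250 bases before to 50 after an annotated start, and all 9 members had at least 1. Both strands were searched for the MEF2 site and the E-box (CANNTG, the element of myogenic bHLH factors such as MyoD). The windows are printed 5′ to 3′ on the gene's strand, with matches in capitals. For Mef2c, with 3 windows, the first in transcription order is shown.
Mef2c promoter window, chr13:83503784-83504083, plus strand: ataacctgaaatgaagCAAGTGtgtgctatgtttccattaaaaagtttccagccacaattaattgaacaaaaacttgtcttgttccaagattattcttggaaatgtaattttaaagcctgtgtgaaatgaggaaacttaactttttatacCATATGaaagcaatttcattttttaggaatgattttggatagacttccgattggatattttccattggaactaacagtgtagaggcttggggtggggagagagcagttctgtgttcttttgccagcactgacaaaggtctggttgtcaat
Mef2a promoter window, chr7:67372809-67373108, minus strand: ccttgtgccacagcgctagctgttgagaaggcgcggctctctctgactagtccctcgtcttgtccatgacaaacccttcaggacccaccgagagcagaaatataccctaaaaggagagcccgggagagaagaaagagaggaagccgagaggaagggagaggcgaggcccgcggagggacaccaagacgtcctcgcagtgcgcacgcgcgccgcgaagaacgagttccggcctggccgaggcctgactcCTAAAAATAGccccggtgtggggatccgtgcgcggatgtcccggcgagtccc
Smyd1 promoter window, chr6:71262232-71262531, minus strand: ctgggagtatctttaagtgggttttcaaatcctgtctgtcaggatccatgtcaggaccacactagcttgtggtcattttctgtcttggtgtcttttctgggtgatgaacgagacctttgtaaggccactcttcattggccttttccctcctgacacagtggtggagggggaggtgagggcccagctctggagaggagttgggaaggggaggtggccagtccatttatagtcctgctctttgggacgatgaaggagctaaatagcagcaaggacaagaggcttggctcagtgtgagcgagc
Smarcd3 promoter window, chr5:24601953-24602252, minus strand: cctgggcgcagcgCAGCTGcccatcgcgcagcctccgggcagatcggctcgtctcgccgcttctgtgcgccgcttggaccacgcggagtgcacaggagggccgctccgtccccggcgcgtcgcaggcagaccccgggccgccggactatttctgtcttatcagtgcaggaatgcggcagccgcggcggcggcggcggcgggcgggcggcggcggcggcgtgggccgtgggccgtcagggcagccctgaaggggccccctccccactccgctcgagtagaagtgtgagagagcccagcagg
Hdac5 promoter window, chr11:102230123-102230422, minus strand: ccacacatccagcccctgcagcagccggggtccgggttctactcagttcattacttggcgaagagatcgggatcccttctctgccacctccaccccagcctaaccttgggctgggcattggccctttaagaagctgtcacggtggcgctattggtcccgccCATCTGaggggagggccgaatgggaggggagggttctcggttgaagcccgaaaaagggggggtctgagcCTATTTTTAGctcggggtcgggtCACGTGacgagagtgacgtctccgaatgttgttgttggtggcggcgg
The 9 members have 15 windows in all. A MEF2 site was found in 2 of the 15, as CTAAAAATAG at base 249 of the Mef2a window and as CTATTTTTAG at base 231 of the Hdac5 window, counted from 1 at the window's 5′ end. Over all 32851 windows in the RefSeq table, 3.19% hold a MEF2 site and 72.3% an E-box. The 2 genes with the element thus include 1 that was higher in beating samples and 1 that did not pass the test. The windows of Mef2c and Hdac5 shown have 2 E-boxes each and that of Smarcd3 has 1, while the Smyd1 window has neither element in these 300 bases. Of the 15 windows, 8 held an E-box, and these belong to 5 of the 9 members. The CArG box, the element of serum response factor, was in none of the members' windows and in 1.63% of all windows. A match is a stretch of letters, and binding was not measured.

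Of 21 known MEF2 targets, 14 were higher in the beating samples by limma, none was lower and 7 did not pass, beside 2.82% of all clusters higher. Their median difference was 2.68, beside 0.0073 over all clusters. A high share was not particular to this list. Of the marker genes, 9 of 10 shared by both kinds of striated muscle and 11 of 13 of skeletal muscle were also higher. The list of targets was written with results on these samples known. The 6 largest rises were in Casq1, Klhl31, Xirp2, Des, Hrc and Pdlim3. Casq1, a calcium buffer of the sarcoplasmic reticulum, was at 9.92 ± 0.26 in the beating group and 3.60 ± 0.28 in the non-beating group (log2 signal with SD over 4 samples a group; limma adjusted p = 8.16e-07). Des, the muscle intermediate filament desmin, was at 8.89 ± 0.25 in beating samples and 3.53 ± 0.44 in non-beating ones. Xirp2, an actin-binding protein of cell junctions in heart and muscle, was at 7.80 ± 0.55 in beating samples and 2.32 ± 0.12 in non-beating ones.

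**Figure D3:**
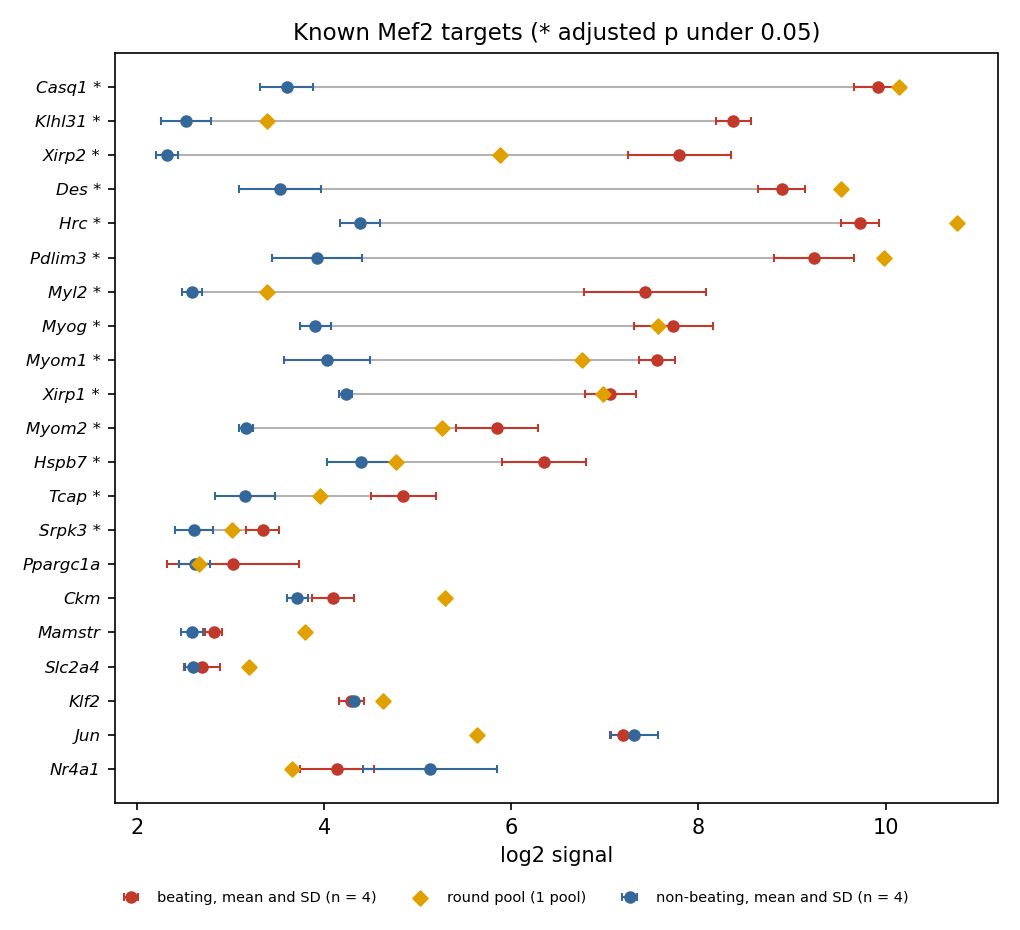
Log2 signal (x axis) of 21 known MEF2 targets (rows) in beating samples (red, mean and SD, n = 4), the round pool (yellow diamond, 1 pool) and non-beating samples (blue, mean and SD, n = 4), with grey lines joining the means. An asterisk marks the 14 genes with an adjusted p under 0.05, all with the beating mean to the right. The 7 genes at the bottom did not pass the test.

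The 7 targets that did not pass were Ckm, Ppargc1a, Slc2a4, Nr4a1, Klf2, Jun and Mamstr, named after their values were seen. Ckm, muscle creatine kinase, was at 4.09 ± 0.23 in the beating group and 3.71 ± 0.11 in the non-beating group (SD, n = 4 a group, adjusted p = 0.109 by limma). Nr4a1, an orphan nuclear receptor induced by activity, had the lowest difference of the list, -0.999, at 4.14 ± 0.40 in the beating group and 5.14 ± 0.72 in the non-beating group (adjusted p = 0.157).

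Of 23 genes of kinases, carriers and other regulators of class IIa deacetylases, 4 were higher (Camk2a, Camk2b, Camk2d and Sik1) and 1 was lower (Camk1). The other 18 did not pass the test of limma, and the median difference was -0.18. Over all clusters, 2.82% were higher and 3.34% lower. Camk2b, a subunit of CaMKII found in muscle and brain, was at 5.03 ± 0.50 in the beating group and 3.62 ± 0.089 in the non-beating group (SD, n = 4 a group), a log2 fold change of 1.42 (adjusted p = 0.0107). Camk2d, the main heart subunit, was at 7.54 ± 0.084 in the beating group and 7.10 ± 0.037 in the non-beating group (adjusted p = 0.00561), and Camk2a at 4.06 ± 0.48 in the beating group and 3.05 ± 0.15 in the non-beating group (adjusted p = 0.0385). Sik1, a kinase of class IIa deacetylases in muscle cells, was at 5.23 ± 0.29 in the beating group and 4.63 ± 0.13 in the non-beating group (adjusted p = 0.0498), and Camk1 at 4.90 ± 0.19 in the beating group and 5.47 ± 0.15 in the non-beating group (adjusted p = 0.03). When each of the 8 arrays was left out in turn, Camk1 and Camk2a no longer passed in 6 cases each and Sik1 in 7, and Camk2b under the methods' two-sample test, adjusted (adjusted p = 0.0516). None of the 6 genes of 14-3-3 proteins passed the test.

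The deacetylases of other classes and their corepressors showed no called change. Of 13 such genes measured, among them Hdac1, Hdac2 and Hdac3 of class I, none passed the test of limma. Over all clusters, 6.16% were called in either direction. The median difference of the 13 genes was -0.012. Of 20 activators and cofactors of MEF2, Akap6 was higher and Nfatc3 lower, and 18 did not pass. Each direction thus held 5% of this list, beside 2.82% of all clusters higher and 3.34% lower. Akap6, which anchors kinases and calcineurin at the nuclear envelope of muscle cells, was at 5.95 ± 0.35 in the beating group and 3.16 ± 0.28 in the non-beating group (SD, n = 4 a group, adjusted p = 0.00016), and Nfatc3, a calcineurin-responsive factor, at 6.53 ± 0.17 in the beating group and 7.21 ± 0.099 in the non-beating group (adjusted p = 0.00714).

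The genes whose signals were most like those of Mef2c over the 8 beating and non-beating arrays were Sntb1, Des, Actc1, Asb5 and Inpp4b, with Pearson's r between 0.990 and 0.997. Those most like Smyd1 were Myh7, Igf2, Itgb1bp2, Acta1 and Bin1, with r between 0.987 and 0.997. These are the highest r among 18709 genes, the arrays fall into 2 separate groups, and any gene with a clean difference between them has a high r, so the values describe these arrays only.

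Markers of other cell types were also read, since MEF2 genes and Hdac7 are active in several of them. The mean log2 signal of 13 macrophage genes lay between 3.34 and 4.85 in beating and between 4.80 and 6.23 in non-beating samples. None of the 13 passed the test, but all 13 had a lower mean in the beating group, with a median difference of -1.05. The mean of 10 endothelial genes lay between 3.61 and 5.27 in beating and between 4.44 and 5.39 in non-beating samples, with none past the test. That of 8 B and T lymphocyte genes lay between 2.64 and 2.99 in beating and between 2.54 and 2.64 in non-beating samples, below the array medians. Of 9 fibroblast genes 3 were lower and of 9 adipocyte genes 3 were lower, beside 3.34% of all clusters. The mean of the 9 fibroblast genes still lay between 7.35 and 7.80 in beating samples, against 8.02 to 8.68 in non-beating samples. Of 8 smooth muscle genes Smtn and Des were higher, beside 2.82% of all clusters, and the other 6 did not pass. The median difference of the 8 was -0.22, and Des is also 1 of the MEF2 targets above. Of 5 Schwann cell and neuron genes, Ncam1 was higher, which muscle cells also express. The part of these cells in the differences of the 9 members was not tested.

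There was 1 round pool, so its values are given without an error or a test. Mef2c was at 9.34 in the round cells, -0.79 from the beating mean and 3.22 above the non-beating mean, between the 2 groups. Smyd1 was at 5.01, within the range of the beating samples and 2.27 above the non-beating mean. Mef2a, at 7.42, and Smarcd3, at 4.29, lay below all 4 beating samples and within the range of the non-beating samples, 0.018 and 0.052 above the non-beating mean. The 4 genes called higher in the beating group thus split in the round pool as deposited, with Mef2c and Smyd1 above all 4 non-beating arrays and Mef2a and Smarcd3 among them.

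As deposited, Mef2d was at 7.04 in the round pool, above all 8 other arrays, a position lost after median centring, and Hdac4 was at 5.11, below all 8, a position lost after quantile normalization. Over all clusters, 46.4% lay above and 24.4% below all 8 arrays in the round pool, so single positions of this kind were common. Hdac5 was at 4.01, Hdac7 at 4.46 and Hdac9 at 3.53, within the range of the non-beating samples. In all, 3 of 9 members were above all 4 non-beating arrays, against 54.3% of clusters, and 1 of 9 below all 4, against 29.3%. Relative to the beating arrays, 2 of 9 were above all 4, against 50.3% of clusters, and 5 of 9 below all 4, against 27.9%.

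The round values depended on scaling. The median over all clusters of the round pool minus the non-beating mean was 0.22. With clusters divided by level into 4 classes of equal size, the dimmest first, it was 0.32, 0.59, 0.21 and -1.33. Mef2a, Mef2c, Mef2d and Hdac4 belong to the brightest class. Mef2c and Smyd1 stayed above all 4 non-beating arrays as deposited, after median centring and after quantile normalization of the 9 arrays. Relative to the beating mean, Smyd1 was at -0.23 as deposited, -0.62 after median centring and 0.53 after quantile normalization, and Mef2c at -0.79, -1.18 and -0.25. For Mef2a the difference from the non-beating mean turned to -0.44 after median centring and was 1.06 after quantile normalization. No order of the round pool against the non-beating samples can be read for Mef2a, Mef2d, Hdac4, Hdac7 or Smarcd3. Hdac5 and Hdac9 lay below the non-beating mean under each scaling, by -0.093 and -0.19 as deposited. As deposited both were within the range of the non-beating samples, so no order can be read for them either.

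**Figure D4:**
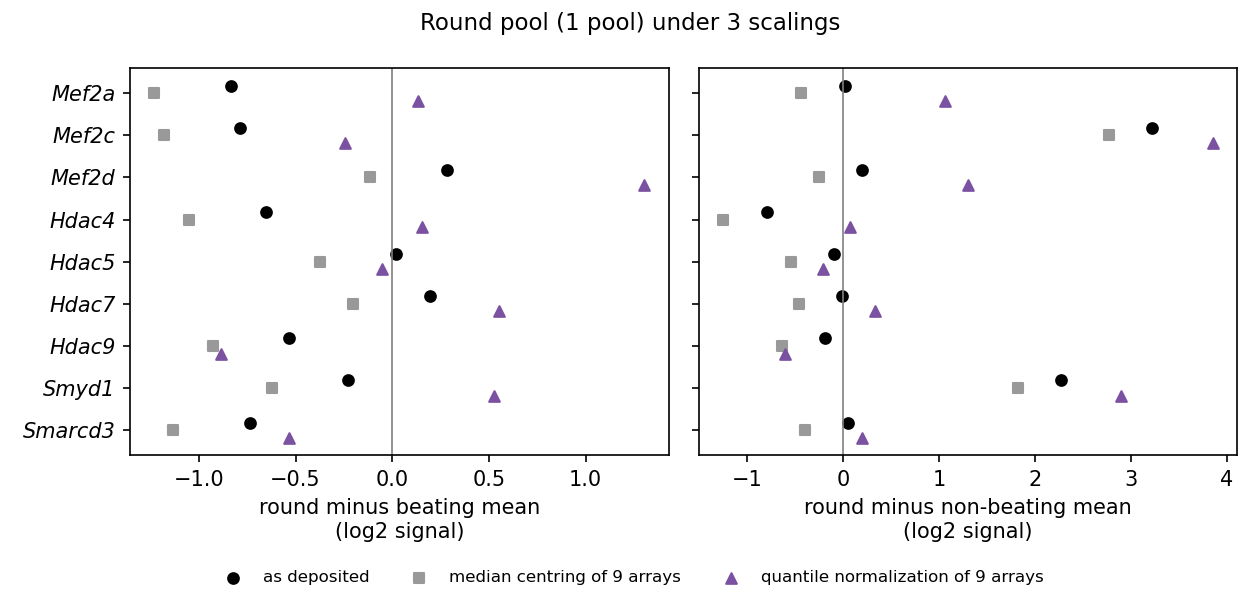
Log2 signal of the round pool minus the beating mean (left) and minus the non-beating mean (right) for each of the 9 genes (rows), as deposited (circles), after median centring (squares) and after quantile normalization of the 9 arrays (triangles). Each point is 1 pool against a mean of 4, with no error. Mef2c (3.22 as deposited) and Smyd1 (2.27) lie right of 0 in the right panel under all 3 scalings.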

How the data were processed

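Log2 signals of Affymetrix Mouse Gene 1.0 ST arrays for 4 beating samples, 1 round pool and 4 non-beating samples were used as deposited. Per the methods, the authors used BRB-ArrayTools 4.6.0 for log2 scaling, normalisation and centring. Which of these steps the deposited table holds is not given in the sources used here. Its values are not centred per gene. Of 33323 clusters, 21789 carry 1 gene symbol, brought to current names through the gene number with the RefSeq table of GRCm38.p6, 1621 carry several and 9913 none.

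The main comparison, beating against non-beating, used lmFit and eBayes of limma 3.58.1 (R 4.3.3) on all clusters without a covariate; other steps used Python 3.11.15. The fit was checked on simulated data. Same-numbered samples were not treated as pairs. Pairs of related genes were compared by an exact permutation test on differences within arrays. Members and lists were chosen with earlier results of these data known. The text names all members, up to 6 called genes of each list with the largest change, marker lists by count, and the 5 genes most like Mef2c and Smyd1. Genes called singled out were named after their values were seen. Alternatives covered normalization, filters on dim and invariant clusters, the variance model, array weights, the two-sample test of the methods, blocking on replicate number, which cluster stands for a gene, and each array left out. Mef2b is not reported here.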

Additional observations from a re-analysis of the deposited data

Results flagged for a closer look

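In groups of 4 samples, a highest or lowest array was marked when its gap to the next, divided by the group's range, passed Dixon's critical value. Chance marks about 1 in 20 groups where the groups are independent and hold no ties. Of the 18 groups of the 9 genes, 7 were marked. These groups share the same 8 arrays and some hold ties, so the rate cannot judge that count. Beating replicate 2 was the lowest of its group for Mef2d (6.46), Hdac4 (5.27) and Hdac5 (3.74). Beating replicate 1 was the lowest for Mef2a (7.97). Among non-beating samples, replicate 4 was the highest for Mef2a (7.77), replicate 1 for Mef2d (7.0) and replicate 3 for Hdac4 (6.0), where the other 3 arrays held 1 value. Neither array of Mef2a, the only one of these genes that passed the test, ended its call when left out.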

How the results depend on the processing

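The directions of Mef2c, Smyd1, Mef2a and Smarcd3 held under all 17 alternatives run for each. Their calls held too, except that Mef2a (0.85, adjusted p = 0.0533) and Smarcd3 (0.79, adjusted p = 0.0511) no longer passed under the methods' two-sample test after adjustment. Over the alternatives, adjusted p lay between 1.57e-07 and 0.00266 for Mef2c and between 4.83e-06 and 0.00271 for Smyd1. Mef2d, Hdac4, Hdac5, Hdac7 and Hdac9 passed under none. That two-sample test, adjusted, gave 491 clusters higher and 375 lower, with 2 members higher and 1 listed gene lower. At its unadjusted p under 0.0001 with the 1.5-fold filter on varying clusters it gave 195 clusters higher and 26 lower, with 2 members higher, and 12 listed genes higher (20 in the main comparison) and 0 lower (2 in the main comparison). The paper's own class comparison at this threshold reported more genes in each direction, so these counts do not reproduce it. There were 4 listed genes lower with dim clusters left out and 4 with median centring. Same-numbered samples did not deviate together (correlations between -0.012 and 0.028), and with the replicate number as a block 637 clusters were higher and 645 lower, with the 4 member calls kept. Leaving out 1 array in turn gave 569 to 914 clusters higher, 438 to 1023 lower, 1 to 4 listed genes lower, and 4 members higher each time. The cause of these shifts was not tested.

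The round pool depended on scaling. Members above the beating mean numbered 3 as deposited, 0 after median centring and 5 after quantile normalization, and those above the non-beating mean 5, 2 and 7. Relative to the beating mean, median centring turned Mef2d (-0.11), Hdac5 (-0.38) and Hdac7 (-0.20), and quantile normalization turned Mef2a (0.13), Hdac4 (0.15), Hdac5 (-0.053) and Smyd1 (0.53). Relative to the non-beating mean, median centring turned Mef2a (-0.44), Mef2d (-0.25) and Smarcd3 (-0.40), and quantile normalization turned Hdac4 (0.076) and Hdac7 (0.33). Dim signals, such as Smyd1 in non-beating samples, limit how well a fold can be read.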

Other observations

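Within the non-beating group, Mef2c and Hdac9 put the 4 samples in 1 order, and so did the mean of the 13 macrophage genes. In non-beating replicates 1 to 4, Mef2c was at 5.49, 6.31, 5.97 and 6.72, Hdac9 at 3.29, 3.87, 3.37 and 4.32, and the macrophage mean at 4.80, 5.88, 4.83 and 6.23 (log2 signal). The mean of the 13 skeletal muscle genes was 3.85, 4.04, 3.62 and 4.11 in these samples, also highest in replicates 4 and 2. In beating replicates 1 to 4 the macrophage mean was 3.34, 3.88, 4.11 and 4.85, with Mef2c at 10.21, 9.85, 10.17 and 10.29 and Hdac9 at 3.90, 3.78, 4.35 and 4.22, in other orders. The mean of the 10 endothelial genes, at 4.79, 4.44, 4.82 and 5.39 in non-beating replicates 1 to 4, gave another order. The shared order was picked after the values were seen, and with 4 samples a group no relation was tested.

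Klhl31 and Myl2, 2 of the 14 MEF2 targets that were higher in beating samples, were each at 3.39 in the round pool. This is below the round pool's array median of 3.54, so both were dim there. Klhl31 had a beating mean of 8.37 and a non-beating mean of 2.52, and Myl2 a beating mean of 7.43 and a non-beating mean of 2.59. These genes were picked after their values were seen, and the round pool has no replicate. Hrc and Pdlim3 were at 10.77 and 9.98 in the round pool, above their beating means of 9.72 and 9.24.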
